A study of Mus musculus with 14 samples.

Results

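The signalling chain examined here runs from the gonadotropin receptors through cyclic AMP (cAMP) to the transcription factors of the CREB family, and was described by 9 genes chosen by name: Fshr, Lhcgr, Gnas, Prkar2b, Prkaca, Creb1, Crem, Atf1 and Pde4d. The choice was made with earlier results of these data known. All 9 were found among the 55414 genes of the count table by symbol. They were followed in 14 RNA-seq libraries of granulosa cells (GCs), each made from about 50 cells of antral follicles released by puncture of the ovary. The db/db group (4 libraries) came from mice functionally deficient for the long form of the leptin receptor, and the ob/ob group (3 libraries) from mice functionally deficient for leptin. Their controls, CT db (4 libraries) and CT ob (3 libraries), were lean littermates of each model. All animals were females on chow diet, 12 weeks old at the end of the protocol, from the strains B6.BKS(D)-Leprdb/J and B6.Cg-Lepob/J. The labels give the controls as wild type, whereas their columns carry names that stand for heterozygous animals. How many mice gave the cells of a library is not given in the sources used here, so the p-values measure the spread between libraries, which may in part be technical.

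In the follicle, follicle-stimulating hormone acts on GCs and luteinising hormone on theca cells and on GCs of the mature follicle. Both receptors couple through the stimulatory G protein to adenylyl cyclase, which makes cAMP, and cAMP releases the catalytic subunits of protein kinase A (PKA) from its regulatory subunits. PKA phosphorylates CREB-type factors bound to cAMP response elements, phosphodiesterases (PDEs) degrade cAMP, and the pathway is known for driving follicle growth, oestradiol synthesis and the acquisition of LH receptors.

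The values given are CPM, counts relative to the library total after scaling with TMM factors. Comparisons between genes use CPM per kb of annotated exon. The libraries held 2204686 to 8367593 counts, so that 3 counts, taken as the smallest amount detected, stood for 0.369 to 1.3 CPM. Depth followed group, with 2204686 to 3059777 counts in db/db and 5306632 to 8367593 in ob/ob. The controls lay between, at 3624237 to 4840714 counts in CT db and 3664219 to 4847166 in CT ob. The part of depth in the differences between groups was not tested. Lepr (0 to 17 counts per library) and Lep (0 to 3 counts) were too low to check the genotype labels. All 9 granulosa cell markers were detected in each group, with summed levels of 11100 to 27200 CPM over the 14 libraries. Markers of other cells were lower, at 76.5 to 731 CPM for theca cells, 28.9 to 262 CPM for luteal cells, 3.1 to 31.4 CPM for endothelium, 1.72 to 22.2 CPM for immune cells, 5.95 to 66 CPM for stroma and smooth muscle and 0 to 0.68 CPM for red blood cells. Among theca markers, Insl3 was at 0 in both control groups. Oocyte markers ranged from 2.81 to 1050 CPM, and 8 of 8 were detected in each group. In a bulk library, fewer cells of a type and less RNA per cell cannot be told apart.

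**Figure D1:**
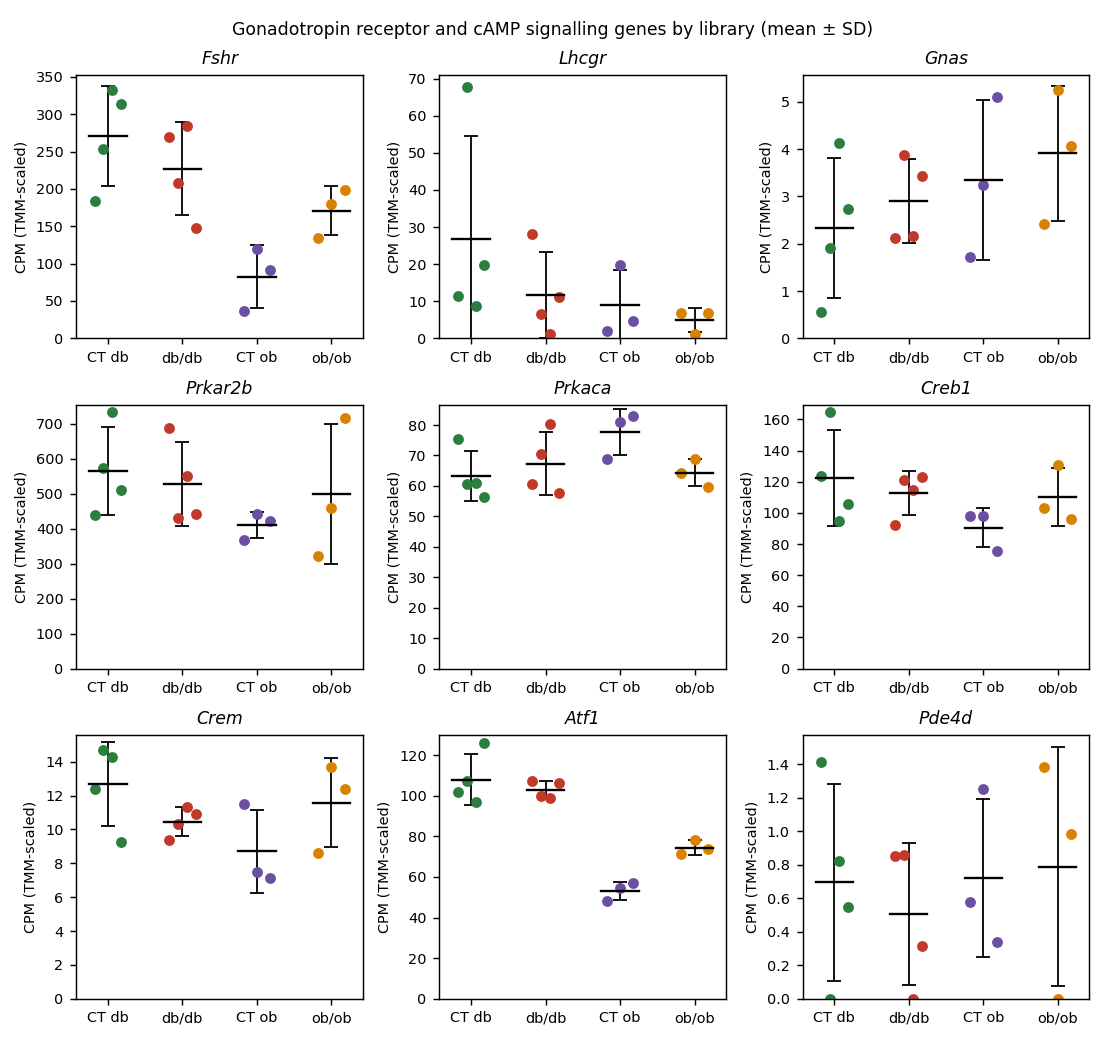
Each panel plots the TMM-scaled CPM of a gene (vertical axis, from 0) in every library of the 4 groups, with points for libraries, long bars for means and whiskers for SD (n = 4 in CT db and db/db, n = 3 in CT ob and ob/ob). Fshr and Atf1 sit lower in CT ob (36.4 to 120 and 48.3 to 56.8 CPM) than in CT db (184 to 332 and 96.7 to 126 CPM), whereas groups overlap for most other genes.

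The chain was unevenly represented in these cells. Over the 14 libraries, the most abundant member per kb was Prkar2b, the RIIβ regulatory subunit of PKA, at 90.2 CPM per kb, followed by Fshr, the FSH receptor, at 73.3 CPM per kb. The catalytic subunit gene Prkaca (24.1 CPM per kb) and the CREB-type activator Atf1 (20.3 CPM per kb) came next. Creb1, the founding factor of the family, stood at 7.84 CPM per kb, the LH receptor gene Lhcgr at 1.6 and Crem, a CREB relative with activator and repressor isoforms, at 0.972. Gnas, which encodes the stimulatory G protein alpha subunit, was at 0.254 CPM per kb and Pde4d, a cAMP-specific PDE, at 0.0459. In each comparison the filter on low counts removed Pde4d, and in the db model it removed Gnas too, which left 7 of 9 members tested in db/db against CT db and 8 of 9 in the other comparisons.

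Fshr lies on chromosome 17 (GRCm39, 89292380 to 89508139, minus strand), and Lhcgr on the same strand 192906 bases away (89023909 to 89099473). Atf1 lies on chromosome 15 (100125664 to 100159129, plus strand). The sequences upstream of these 3 genes are shown because Fshr and Atf1 are the members whose levels passed the test below, and Lhcgr is the other receptor. They are the parts of RefSeq promoter windows (GRCm38.p6, 250 bases before to 50 after the start) that precede every annotated start of the gene, each matched exactly 1 time to GRCm39, at chr17:89508140-89508353 (minus strand), chr17:89099474-89099692 (minus strand) and chr15:100125490-100125663 (plus strand). Capitals mark matches on either strand to the letters of an E-box (CACGTG), a GC box (GGGCGG) or the core of a cAMP response element (TGACG), none of which overlapped in the stretches shown.
Fshr: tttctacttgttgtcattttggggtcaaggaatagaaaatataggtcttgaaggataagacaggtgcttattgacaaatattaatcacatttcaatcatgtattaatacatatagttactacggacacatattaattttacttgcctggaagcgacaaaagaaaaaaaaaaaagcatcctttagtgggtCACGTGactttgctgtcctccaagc
Lhcgr: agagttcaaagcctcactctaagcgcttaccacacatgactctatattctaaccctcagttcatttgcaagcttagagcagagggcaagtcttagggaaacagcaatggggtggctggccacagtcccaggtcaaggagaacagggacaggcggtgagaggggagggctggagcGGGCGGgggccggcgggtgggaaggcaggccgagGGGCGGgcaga
Atf1: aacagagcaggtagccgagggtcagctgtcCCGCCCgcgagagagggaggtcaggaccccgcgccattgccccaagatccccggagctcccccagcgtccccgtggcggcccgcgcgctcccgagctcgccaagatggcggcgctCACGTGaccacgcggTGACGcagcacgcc

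The Fshr window held an E-box starting at position -61 from the RefSeq start and none of the other letters searched. Atf1 held an E-box at -105, the TGACG core at -90 and GC boxes at -220 and -31, the latter outside the stretch shown. Lhcgr held 4 GC boxes, at -76, -42, -25 and -12, of which the last 2 lie outside the stretch shown. Of the 9 members, 8 had a RefSeq window, with 13 windows in all, as Gnas, Prkar2b and Prkaca have several. In at least 1 of its windows, 4 of the 8 held an E-box (Fshr, Prkar2b, Prkaca and Atf1), beside 8.09% of all 27025 genes counted in the same way and 7.15% of all 32851 windows. The TGACG core was found in 3 of 8 (Gnas, Prkaca and Atf1), beside 23% of all genes and 20.8% of all windows, and the GC box in 6 of 8, beside 38.2% of genes and 35.7% of windows. The full response element TGACGTCA (2.03% of all genes and 1.79% of windows, and containing the core) and the nuclear receptor site AAGGTCA (5.38% and 4.72%) were in 0 of 8. These matches describe letters in the windows only.

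Of the 2 receptors, Fshr passed the test between the controls. The libraries of CT db held 184, 254, 332 and 314 CPM of Fshr, and those of CT ob held 36.4, 120 and 90.8 CPM. Every CT ob library was thus below every CT db library. The mean was 82.3 ± 42.3 CPM (SD, n = 3) in CT ob and 271 ± 66.9 CPM (SD, n = 4) in CT db, and the fitted log2 fold change was -1.72 (SE 0.349, 95% interval -2.46 to -0.98), or 0.304-fold (edgeR, adjusted p = 0.0163). The difference no longer passed the threshold when only these 2 groups were fitted (adjusted p = 0.0656) or when library 3 of CT ob was left out (adjusted p = 0.057).

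In the mutants, the Fshr level lay between those of the controls. The db/db libraries held 270, 208, 284 and 147 CPM (mean 227 ± 62.7, SD, n = 4), a range that overlapped with CT db. The ob/ob libraries held 134, 180 and 198 CPM (mean 171 ± 32.8, SD, n = 3), all above the 3 CT ob libraries. In the same comparison the granulosa cell markers summed to 17800 to 22900 CPM in ob/ob and to 11100 to 15800 CPM in CT ob, with 0 of 9 called. Endothelial markers summed to 7.02 to 8.03 CPM in ob/ob and to 8.84 to 31.4 CPM in CT ob, and the 3 stroma and smooth muscle markers tested had negative log2 fold changes, with 0 called. The granulosa cell and endothelial sums did not overlap between the groups. Without the gap junction gene Gja1, however, the other 8 granulosa cell markers summed to 7460 to 12500 CPM in ob/ob and to 5130 to 10200 CPM in CT ob, with overlap. The part of these marker differences in the level of Fshr in ob/ob was not tested. The log2 fold change of Fshr was -0.26 in db/db against CT db (SE 0.231, 95% interval -0.76 to 0.24, adjusted p = 0.81) and 1.05 in ob/ob against CT ob (SE 0.393, 95% interval 0.15 to 1.95, adjusted p = 0.584). Without a filter on low counts the latter passed the threshold (log2 fold change 1.13, adjusted p = 0.00202), and without library 1 of CT ob it was 0.69. The effects of the 2 mutations on Fshr differed by 1.31 on the log2 scale (SE 0.47, 95% interval 0.31 to 2.31), which did not pass after adjustment (adjusted p = 0.523), but passed without the filter (adjusted p = 0.000802). Between the mutants the log2 fold change of Fshr was -0.41 (adjusted p = 0.866). The order of the Fshr means was therefore CT db, db/db, ob/ob and CT ob, and no pair of neighbours in this order passed the test.

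The oocyte and granulosa cell markers were set beside this difference. The oocyte markers summed to 1050, 271 and 64.2 CPM in libraries 1 to 3 of CT ob and to 2.81 to 236 CPM in CT db. The log2 fold change was positive for 8 of 8 markers, with 0 of 8 called (edgeR and an adjusted p of 0.05). The filter on low counts kept only 4 of 8 in the db model, and all 8 once libraries of the ob model were included. Their common sign is therefore no result. The CT ob library with the lowest Fshr was also the one with the most oocyte RNA. Without this library the log2 fold change of Fshr between the controls was -1.36 (adjusted p = 0.0363). The 9 granulosa cell markers summed to 11100 to 15800 CPM in CT ob and to 18000 to 27200 CPM in CT db. The gap between these sums came from the gap junction gene Gja1, as the other 8 markers summed to 5130 to 10200 CPM in CT ob and to 5260 to 8680 CPM in CT db. Of the 9 markers, 5 had a positive and 4 a negative log2 fold change, and Gja1 alone was called. Endothelial markers summed to 8.84 to 31.4 CPM in CT ob and to 3.1 to 8.24 CPM in CT db, with 2 of 5 tested and 0 called. In the db model 0 of 5 passed the filter. The part of these marker differences in the level of Fshr was not tested.

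Lhcgr was low and uneven within each group. Its libraries held 11.3, 67.7, 8.79 and 19.7 CPM in CT db and 28.1, 6.45, 1.3 and 11.2 CPM in db/db. The levels of Lhcgr were 1.92, 19.9 and 4.76 CPM in CT ob and 6.9, 1.25 and 6.9 CPM in ob/ob. All groups overlapped, and library 2 of CT db stood highest. In CT db, CT ob and db/db, the library with the most Lhcgr was also the one with the highest sum of luteal markers. These sums were 193 CPM in library 2 of CT db (77.7 to 142 CPM in the rest), 262 CPM in library 2 of CT ob (28.9 and 53 CPM in the rest) and 115 CPM in library 1 of db/db (84.4 to 101 CPM in the rest). The latter also held 731 CPM of theca markers. In ob/ob the luteal sums were 57.8 to 58.8 CPM, and library 2, with the highest sum, had the least Lhcgr. Of the luteal markers in db/db, Akr1c18 reached at most 1.3 CPM and Ptgfr at most 0.312 CPM. The sums there were mostly Prlr (36.4 to 87 CPM) and Parm1 (27.3 to 49.8 CPM). The paper describes ovaries of both mutants as without corpora lutea. The part of other cell types in the level of Lhcgr was not tested. The coefficient of variation was 65.1 to 109% within the groups, against 19.2 to 51.4% for Fshr. The highest group mean of Lhcgr (26.9 CPM, CT db) was 5.37 times the lowest (5.01 CPM, ob/ob), against 3.29 times for Fshr. The log2 fold change of Lhcgr was -1.21 in db/db (SE 0.741, adjusted p = 0.724), -0.83 in ob/ob (SE 0.89, adjusted p = 0.817) and -1.61 between the controls (SE 0.93, adjusted p = 0.275). Without a filter on low counts Lhcgr was called in db/db (log2 fold change -1.24, adjusted p = 0.000575) and between the controls (-1.63, adjusted p = 0.000341). In db/db the log2 fold change was -0.17 without library 2 of CT db and -2.05 without library 1 of db/db. Between the controls it was -0.58 without library 2 of CT db and -3.08 without library 2 of CT ob, and none of these 4 values passed the threshold. Of the RNA of the 2 receptors per kb, Fshr made up 92.5 to 99.9% in every library.

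**Figure D2:**
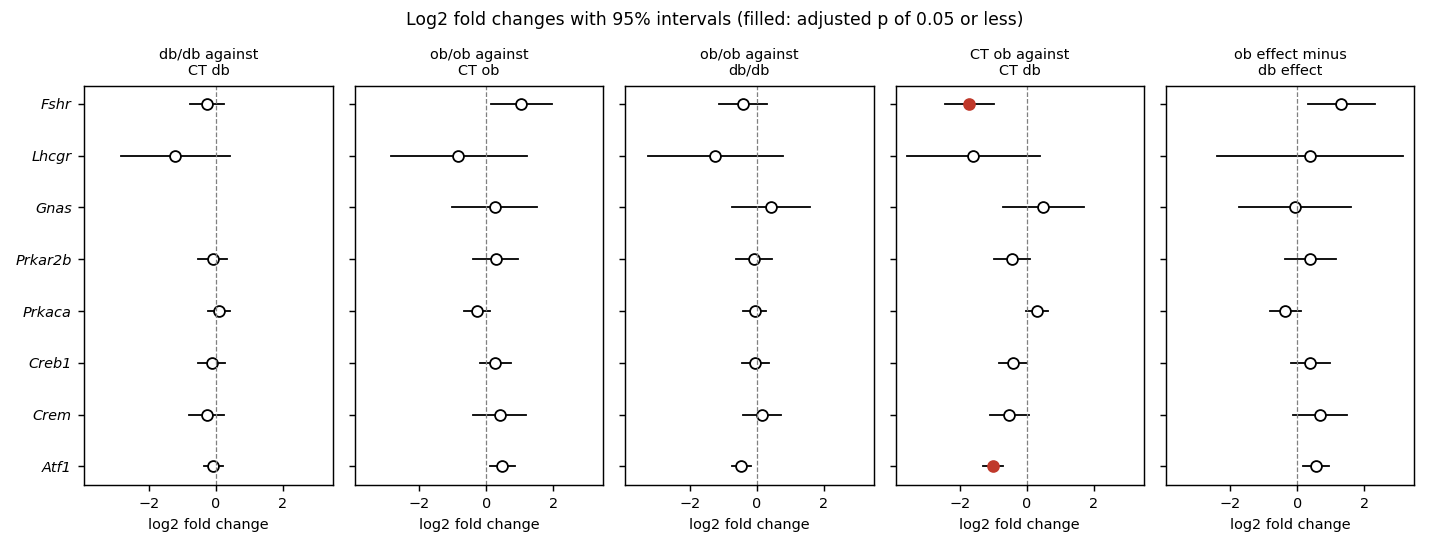
Each panel plots the fitted log2 fold change (horizontal axis) of the members tested in 1 of the 5 comparisons, with points for estimates and lines for 95% intervals. Filled points, adjusted p of 0.05 or less, appear for Fshr (-1.72) and Atf1 (-1.02) in CT ob against CT db and in no other panel.

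Gnas and Pde4d were close to the limit of detection. Gnas had 2 to 38 counts per library (0.563 to 5.26 CPM), with a log2 fold change of 0.25 in ob/ob (95% interval -1.01 to 1.51) and 0.49 between the controls (95% interval -0.71 to 1.7), neither of which passed the test. In the annotation 9.26% of the exon length of Gnas is shared with its antisense gene Gnasas1, and the strand setting of the counting is not given in the sources used here. Whether reads of the Gnas locus were lost in counting was not tested, so the level of Gnas is uncertain. Antisense genes also share 8.64% of the exon length of Prkaca and 6.99% of that of Crem. Other G protein alpha subunit genes were well above it, with 72.8 CPM per kb for the inhibitory subunit gene Gnai3. Pde4d had 0 to 8 counts per library (0 to 1.41 CPM) and was removed by the filter. Without the filter its log2 fold changes were -0.44 to 0.67 over the 5 comparisons (adjusted p = 0.918 to 1).

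No PKA subunit gene was called in any comparison. Outside the members, 6 PKA subunit and inhibitor genes were tested in ob/ob against CT ob. Without overlap, 1 was higher and 2 were lower, beside 15.7% of all genes. The 2 lower genes, named after their values were seen, were Prkar1b and the inhibitor gene Pkig. Prkar1b held 1.94 to 5.42 CPM in ob/ob and 5.56 to 12.7 CPM in CT ob. Pkig held 39 to 42.3 CPM in ob/ob and 43.6 to 89.1 CPM in CT ob. Prkacb went the other way, with 94 to 123 CPM in ob/ob and 75.8 to 92.9 CPM in CT ob. Prkar2b held 439, 575, 733 and 512 CPM in CT db, 687, 430, 551 and 441 CPM for db/db, 368, 441 and 422 CPM in CT ob and 322, 458 and 717 CPM in ob/ob. These ranges overlapped in every comparison. The log2 fold change of Prkar2b was -0.1 in db/db (95% interval -0.54 to 0.33), 0.28 in ob/ob (-0.39 to 0.94) and -0.46 between the controls (-1 to 0.08), with adjusted p of 0.926, 0.811 and 0.256. Per kb, Prkar2b made up 57.6 to 75.1% of the 4 regulatory subunit genes, ahead of Prkar1a (20.7 to 35%), Prkar2a (3.47 to 12.3%) and Prkar1b (0.525% on average).

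Prkaca held 75.4, 60.5, 61 and 56.5 CPM in CT db, 60.5, 70.5, 80.5 and 57.8 CPM for db/db, 69, 81 and 82.9 CPM in CT ob and 64.4, 68.7 and 59.8 CPM in ob/ob. Each ob/ob library was below each CT ob library, but by a small margin, as the log2 fold change of Prkaca was -0.28 (SE 0.173, 95% interval -0.67 to 0.12, adjusted p = 0.699). Between the controls it was 0.3 (95% interval -0.03 to 0.63, adjusted p = 0.229). Prkacb, the other catalytic subunit gene, had a log2 fold change of -0.38 between the controls (adjusted p = 0.109). Prkaca accordingly made up 74.6% ± 3.77 (SD, n = 3) of the catalytic subunit RNA per kb in CT ob and 64.8% ± 1.39 (SD, n = 4) in CT db, without overlap. In the mutants the share was 66.5% ± 2.22 for ob/ob (SD, n = 3) and 63.1% ± 4.62 for db/db (SD, n = 4), and these shares were not tested. How many pairs of genes separate the controls in this way was not counted. The size of the share depends on exon length. Before division by length, Prkacb was the higher gene over the 14 libraries (108 CPM, against 67.8 CPM for Prkaca). Per kb of the longest transcript the means were 23.6 for Prkacb and 28.9 for Prkaca.

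**Figure D3:**
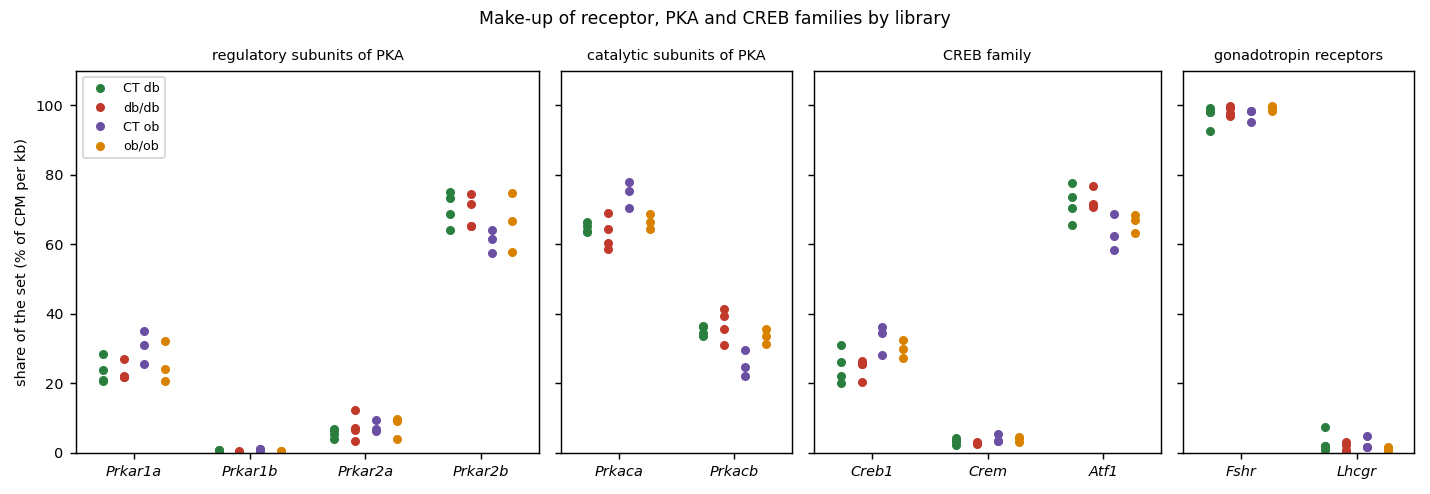
The vertical axis plots each gene's share, in percent of CPM per kb, of 4 sets (the regulatory and the catalytic PKA subunits, the CREB family and the gonadotropin receptors), with 1 point per library coloured by group. Prkar2b, Atf1 and Fshr hold the greater part of their sets in every library, and the share of Prkaca in CT ob (70.4 to 77.8%) lies above that in CT db (63.5 to 66.5%).

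Among the CREB-type members, only Atf1 passed the test, and only between the controls. Its libraries held 102, 107, 96.7 and 126 CPM in CT db, 107, 99.8, 98.7 and 106 CPM for db/db, 48.3, 54.3 and 56.8 CPM in CT ob and 71.1, 78.4 and 73.9 CPM in ob/ob. All 6 libraries of the ob model were below all 8 of the db model, and within the ob model the mutants were above their controls. The share of all genes that separate the models in this way was not counted. Of all genes, 21.2% did not overlap between the controls and 9.91% did not overlap between the mutants. Between the controls Atf1 had a log2 fold change of -1.02 (SE 0.135, 95% interval -1.31 to -0.73), with a mean of 108 ± 12.8 CPM (SD, n = 4) in CT db and of 53.1 ± 4.36 CPM (SD, n = 3) in CT ob (adjusted p = 0.00268). The value ranged from -1.09 to -0.94 as each library was left out, all past the threshold, whereas the adjusted p was 0.0524 when only the 2 control groups were fitted. The log2 fold change of Atf1 was -0.46 between the mutants (SE 0.132, 95% interval -0.74 to -0.18, adjusted p = 0.344) and 0.48 in ob/ob against CT ob (SE 0.169, 95% interval 0.1 to 0.87, adjusted p = 0.563). In db/db against CT db it was -0.08 (95% interval -0.36 to 0.2), and the effects of the 2 mutations differed by 0.56 (SE 0.186, adjusted p = 0.484). The Atf1 pseudogene Atf1-ps had 0 to 1 counts per library.

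Creb1 and Crem did not pass the test in any comparison. Creb1 held 124, 165, 95.1 and 106 CPM in CT db, 92.5, 121, 115 and 123 CPM for db/db, 97.9, 97.9 and 75.8 CPM in CT ob and 103, 131 and 96.3 CPM in ob/ob, with overlap throughout. Its largest log2 fold change was -0.43 between the controls (SE 0.196, 95% interval -0.85 to -0.01, adjusted p = 0.173). Crem, on chromosome 18, held 7.14 to 11.5 CPM in CT ob and 9.28 to 14.7 CPM in CT db (log2 fold change -0.53, 95% interval -1.11 to 0.06, adjusted p = 0.227). The Crem libraries of the mutants spanned 8.63 to 13.7 CPM (ob/ob) and 9.38 to 11.3 CPM (db/db). Of the CREB-type RNA per kb, Atf1 took 58.4 to 77.7%, Creb1 20.1 to 36.3% and Crem 2.19 to 5.32% across the libraries. Before division by exon length, Creb1 (110 CPM over the 14 libraries) was above Atf1 (87.5 CPM). The group means of Fshr, Prkar2b, Creb1 and Atf1 followed the same order, CT db, db/db, ob/ob and CT ob, although the highest mean exceeded the lowest 3.29 times for Fshr, 2.03 times for Atf1 and only 1.38 and 1.35 times for Prkar2b and Creb1.

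Counted together, 0 of 7 members tested were called in db/db against CT db, where 0.00884% of all genes tested were called, with 0 at an unadjusted p under 0.05 (7.59% of all genes) and 0 called by DESeq2 (0.389%). All 7 overlapped between the groups, beside 4.13% of all genes without overlap. In ob/ob against CT ob, 0 of 8 were called (0% of all genes), with 2 at an unadjusted p under 0.05 (8.16% of all genes) and 0 by DESeq2 (0.692%). The groups did not overlap for 3 members in that comparison (Fshr and Atf1 higher, Prkaca lower), beside 15.7% of all genes. In ob/ob against db/db, 0 of 8 were called (0.0159% of all genes), with 1 (Atf1) at an unadjusted p under 0.05 (8.18% of all genes) and 0 by DESeq2 (0.572%). Atf1 was also the only member without overlap there, beside 9.91% of all genes. Between the controls 2 of 8 were called, both lower in CT ob, where 6.63% of all genes were called and 4.39% were called lower. DESeq2 called 2 there as well (12.4% of all genes), and 3 were at an unadjusted p under 0.05 (26.9% of all genes). The groups did not overlap for Fshr and Atf1 alone, beside 21.2% of all genes. The difference between the mutant effects was called for 0 of 8 (0% of all genes), with 2 at an unadjusted p under 0.05 (8.11% of all genes) and 0 by DESeq2 (0.572%). The median log2 fold change of the members tested between the controls was -0.5, and that of all genes was 0.06. As the members were chosen with earlier results of these data known, these counts and medians are no independent result about the chain. Each control group belongs wholly to its own model. Model, colony and any difference in handling between the models therefore cannot be told apart in the comparison of the controls.

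The remaining genes of the pathway were read from 9 lists of 124 genes, of which 119 had a count. None of those tested was called in the other 4 comparisons (75 genes tested in the db model and 82 in each of the others). At an unadjusted p under 0.05 there were 4 in db/db against CT db, 8 in ob/ob against CT ob, 8 in ob/ob against db/db and 9 for the difference between the mutant effects, beside 7.59%, 8.16%, 8.18% and 8.11% of all genes. DESeq2 called 0, 1, 3 and 1 of them, beside 0.389%, 0.692%, 0.572% and 0.572% of all genes. Between the controls, 5 of 82 (6.1%) were called, close to the 6.63% of all genes, with 3 higher and 2 lower in CT ob and a median log2 fold change of 0. This count depended on the fit, being 0 when only the control groups were fitted and 13 by DESeq2, which called 12.4% of all genes. The control groups did not overlap for 9 of the 82 genes higher in CT ob and 9 lower, beside 21.2% of all genes. The separations between the controls named below are to be read beside this share.

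Both PDE genes among these 5, Pde1b and Pde4a, passed the filter on low counts through the libraries of the ob model, where they are high, and were not tested in the db model. Their calls are therefore no result about the list. Pde1b, a calcium-activated PDE, held 27.4, 14.9 and 15 CPM in CT ob and 7.6, 4.05, 1.65 and 0 CPM in CT db. Every CT ob library was higher, with a log2 fold change of 2.52 (SE 0.698, adjusted p = 0.0452). Pde4a, a cAMP-specific PDE of the same family as Pde4d, held 3.83, 4.48 and 5.44 CPM in CT ob and 2.25, 1.06, 1.92 and 1.09 CPM in CT db (log2 fold change 1.53, SE 0.434, adjusted p = 0.0481). These were 16 to 20 counts of Pde4a per library in CT ob and 4 to 8 in CT db. The other 8 PDE genes tested of the 15 on the list were not called. The list was led in level by Pde8a (11.3 CPM per kb), Pde7a (3.85) and Pde7b (3.46), whose log2 fold changes between the controls were -0.4, -0.22 and -1.89 (adjusted p = 0.342, 0.519 and 0.063).

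Of the G protein and receptor desensitisation genes, 1 of 18 tested was called between the controls, beside 6.63% of all genes. Gna11, an alpha subunit that couples receptors to phospholipase C, held 158, 162 and 178 CPM in CT ob and 141, 106, 104 and 112 CPM in CT db, without overlap (log2 fold change 0.53, SE 0.135, adjusted p = 0.0352). Rgs2, a regulator of G protein signalling, led this list at 336 CPM per kb, ahead of Gnai3 (72.8) and the beta subunit gene Gnb1 (51.6). Rgs2 had a log2 fold change of 0.25 between the controls (adjusted p = 0.644). Of 10 adenylyl cyclase genes only Adcy9 (2.11 CPM per kb), Adcy3 (1.96) and Adcy6 (0.521) passed the filter, with log2 fold changes of -0.4, 0.12 and 0.37 and 0 called. The inhibitor and subunit genes of PKA outside the members had 0 of 6 called, with Prkar1a (32.9 CPM per kb), Prkacb (11.9) and Prkar2a (8.81) in the lead.

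A-kinase anchoring proteins, which tether PKA within the cell, had 0 of 9 called and were led by Akap8 (14.2 CPM per kb), Akap8l (13) and Akap7 (7.43). CREB coactivators and repressors had 0 of 11 called and were led by Atf4 (50.4 CPM per kb), Atf2 (10.6) and Creb3 (9.02). In the EPAC arm, in which cAMP activates exchange factors of Rap proteins, 1 of 6 was called, beside 6.63% of all genes. Rapgef4, which encodes EPAC2, held 28, 40.4 and 44.9 CPM in CT ob and 49.5, 105, 96.4 and 97.7 CPM in CT db (log2 fold change -1.21, SE 0.337, adjusted p = 0.0456). All CT ob libraries were lower for Rapgef4, beside 21.2% of all genes without overlap in either direction. Rap1b (23.5 CPM per kb) and Rap2b (15.9) were not called. Other receptors coupled to the stimulatory G protein were low, as only 2 of 16 passed the filter between the controls, Ptger2 (1.64 CPM per kb) and Glp1r (0.695), and 0 were called.

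**Figure D4:**
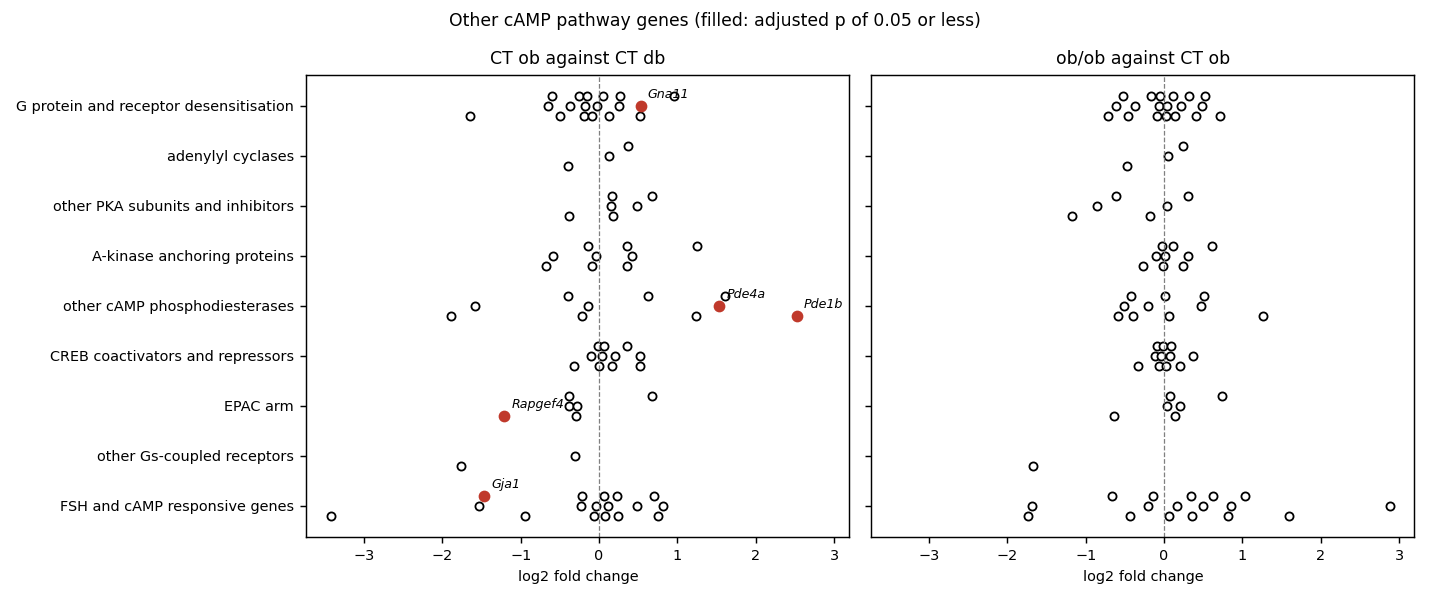
The horizontal axis plots the log2 fold change of each tested gene of the 9 pathway lists (rows) in CT ob against CT db (left) and in ob/ob against CT ob (right), with points staggered vertically for legibility. Filled points mark the 5 called genes, Pde1b (2.52), Pde4a (1.53), Gna11 (0.53), Rapgef4 (-1.21) and Gja1 (-1.47), all in the left panel.

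Genes known to respond to FSH or cAMP formed the last list, of 20 genes with 17 tested between the controls. Gja1, the connexin of the gap junctions between GCs, held 5720, 6930 and 5560 CPM in CT ob and 12700, 18200, 15900 and 20800 CPM in CT db. The groups stood apart, with a log2 fold change of -1.47 (SE 0.19, adjusted p = 0.00221), and the other 16 genes tested were not called. In ob/ob against CT ob, where 0 of 17 were called, 3 genes were higher without overlap and 0 lower, beside 15.7% of all genes without overlap in either direction, so this count is near that of all genes. The 3 were Gja1, Cyp19a1 and Fst, named after their values were seen. Gja1 held 10300, 10500 and 12300 CPM in ob/ob (log2 fold change 0.85, SE 0.225, adjusted p = 0.539). Cyp19a1, the aromatase that makes oestradiol, held 17.9, 83.6 and 32.8 CPM in ob/ob and 10.5, 17.7 and 16.3 CPM in CT ob (log2 fold change 1.59, SE 0.534, adjusted p = 0.561). Fst, which encodes the activin-binding protein follistatin, held 914, 2140 and 918 CPM in ob/ob and 628, 588 and 725 CPM in CT ob (log2 fold change 1.03, SE 0.35, adjusted p = 0.561). Library 2 of ob/ob was the highest for both Cyp19a1 and Fst. In the same comparison 5 of the 17 genes were at an unadjusted p under 0.05 (edgeR), beside 8.16% of all genes. The list was chosen with earlier results of these data known, so this count is no independent result about it. The list was led in level by Gja1 (1010 CPM per kb), the inhibin subunit gene Inha (778) and the immediate early gene Fos (294), and Inha had log2 fold changes of 0.18 in db/db (adjusted p = 0.853) and 0.5 in ob/ob (adjusted p = 0.723).

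The genes most like 3 of the members in their profile over the 14 libraries were sought among 12578 genes by Pearson's r of log2 CPM, as a description. Fshr was followed most closely by Rgs13, a regulator of G protein signalling (r = 0.922, Spearman's rho = 0.916), by Fhdc1 (r = 0.902, rho = 0.855) and by Adamts5, a secreted protease (r = 0.88, rho = 0.697). For Lhcgr these were the thiamine transporter gene Slc19a3 (r = 0.908, rho = 0.912), the oxytocin receptor gene Oxtr (r = 0.883, rho = 0.767) and Nr0b1, an orphan nuclear receptor (r = 0.869, rho = 0.833). For Prkar2b they were Prkra (r = 0.868, rho = 0.877), Me2 (r = 0.819, rho = 0.688) and Sppl3 (r = 0.805, rho = 0.767). The points share the libraries and their depth, and part of each r comes from the groups. After removal of the group means, r was 0.691 to 0.775 for the 3 genes of Fshr, 0.865 to 0.881 for those of Lhcgr and 0.763 to 0.882 for those of Prkar2b. When the genes were ranked by Spearman's rho instead, 1, 0 and 1 of the 3 were the same.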

How the data were processed

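GCs of 14 libraries were captured on oligo-dT beads and sequenced after Smart-seq2 amplification (single reads of 75 bp, without molecular identifiers, so that a limit given by counts covers the counting error alone). The authors deposited raw counts per gene. The study's methods name cutadapt, STAR, GRCm39 and featureCounts, whereas the submitters' processing notes name FastQC, Trim Galore 0.6.2, HISAT2 2.1.0 and GRCm38, and this difference was not settled. Of the identifiers in the table, 98.8% are in the GRCm39 annotation used here for symbols, positions and exon lengths. Columns were assigned to groups, not to replicate numbers, and libraries are numbered by column order within a group.

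From the counts, edgeR 4.0.16 (R 4.3.3) computed TMM factors and quasi-likelihood tests over all genes kept by filterByExpr (minimum count 10, minimum total 15), with p-values adjusted by Benjamini and Hochberg over all of them and a threshold of 0.05 for a call. Each model was fitted on its own, and all 14 libraries together for the comparisons between models. Adjusted p-values are from edgeR unless DESeq2 1.42.0 is named. The tests were checked on simulated counts. Log2 CPM used a prior count of 2. Exon length was the union over transcripts. The members and lists were chosen with earlier results of these data known. Named genes were the members, of each list up to 3 called genes and the 3 of highest CPM per kb, and the 3 genes most like Fshr, Lhcgr and Prkar2b. Of the lists, Prkar1b, Pkig, Cyp19a1 and Fst were named outside this rule, after their values were seen. Alternatives were DESeq2, other scaling factors, other filters, robust quasi-likelihood, other sets of libraries in a fit and leaving out each library.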

Additional observations from a re-analysis of the deposited data

How the results depend on the processing

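The calls of Fshr and Atf1 between the controls rest on the 14-library fit. With only the 2 groups compared, 0 members and 0 pathway list genes were called (log2 fold change -1.74 for Fshr and -1.04 for Atf1), and 3 genes in all. As each library was left out, 1 to 2 members and 1 to 9 pathway list genes were called between the controls. The count of pathway list genes, 5, was 1 without any of libraries 2 and 4 of CT db or libraries 1 and 3 of CT ob, 2 without library 3 of CT db, any of libraries 2 to 4 of db/db or libraries 1 and 3 of ob/ob, 3 without library 2 of CT ob and 9 without library 1 of CT db. The same count was 13 with DESeq2, 11 without a filter, 3 with at least 10 counts in every library and 1 with library totals only.

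Between the controls 282 genes were higher and 552 lower in all, and 352 and 434 with upper quartile factors. The main fit called 834 of 12586 genes tested. DESeq2 called 1563 of 12586, the fit without a filter 1727 of 34753 and that with library totals only 261 of 12586. With at least 10 counts in every library 1025 of 9643 were called. As each library was left out, the count ranged from 112 of 13180 (without library 3 of CT ob) to 1196 of 12640 (without library 1 of CT db). Without a filter, 1 member each was called in db/db against CT db (Lhcgr), in ob/ob against CT ob (Fshr) and for the difference between mutant effects (Fshr), with 1, 5 and 5 pathway list genes, and 7 in ob/ob against db/db. DESeq2 called 1 pathway list gene in ob/ob against CT ob, 3 in ob/ob against db/db and 1 for the difference between mutant effects. All-gene counts in db/db against CT db rose from 1 to 44 with DESeq2 and to 270 without a filter, in ob/ob against CT ob from 0 to 86 and 359, in ob/ob against db/db from 2 to 72 and 535, and for the difference between mutant effects from 0 to 72 and 329. Without a filter, 28505 genes were tested in the db model, 32006 in the ob model and 34753 in the other comparisons. With the filter these were 11317, 12425 and 12586. The causes of the changes in count were not tested.

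Without a filter the sign of the log2 fold change turned for Creb1 in ob/ob against db/db (0.01) and for Gnas in the difference between mutant effects (0.03). Leaving out a library turned the sign of uncalled values within the following ranges. In db/db against CT db these were Atf1 -0.14 to 0.01, Creb1 -0.24 to 0.06, Prkaca -0.01 to 0.18 and Prkar2b -0.26 to 0.03. In ob/ob against CT ob they were Gnas -0.08 to 0.67, Lhcgr -1.32 to 0.62 and Prkar2b -0.08 to 0.51. In ob/ob against db/db they were Creb1 -0.19 to 0.04, Prkaca -0.13 to 0.03 and Prkar2b -0.44 to 0.16, and in the difference between mutant effects Gnas -0.45 to 0.37 and Lhcgr -0.65 to 1.84. Gnas and Pde4d had at most 38 and 8 counts in a library, whereas Gnai3 had 343 to 2388 counts in the same libraries. The causes of these low counts were not tested. No paired analysis was possible because the columns carry no replicate numbers of the labels.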
